A study of Mus musculus with 6 samples.

Results

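Cpe, Coch, Clu, Fhl1 and Ecrg4 are 5 genes of 11138 named genes on 2-colour arrays that compared endothelial cells of smoke-exposed mice with those of control mice. They were chosen by their deposited log ratios, which were high and positive at both exposure times, so their ratios are described here and not tested against control. Endothelial cells line the blood vessels. The cells had been sorted, and the tissue, the mouse strain, the age, the sort marker and the smoke dose are not given in the sources used here. Cells of mice given smoke for 6 weeks were set against a 6-week control on 1 array, and against a 1-week control on a dye-swap pair of arrays, which was averaged as 1 replicate. Cells of mice given smoke for 1 week were set against a control with no stated week on 3 arrays, of which replicate 1 is a dye reversal. Nothing says that the arrays of a group came from separate animals, so every SE and p-value refers to the spread between arrays, which may be technical, and the small number of arrays limits the precision.

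Of the 5 genes, 4 encode secreted proteins. Cpe encodes carboxypeptidase E, which trims basic residues from the ends of peptide hormone precursors and is best known from neuroendocrine secretory granules. Coch encodes cochlin, an extracellular matrix protein known from the inner ear, with an LCCL domain and von Willebrand factor A domains. Clu encodes clusterin, also named apolipoprotein J, an extracellular chaperone that also binds the terminal complement complex. Ecrg4 encodes augurin, a precursor of secreted peptides. Fhl1 differs from them, as it encodes a LIM domain protein of the cytoplasm and nucleus that is abundant in skeletal and heart muscle.

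Each value below is a log2 ratio of the 2 channels, where 1 stands for a 2-fold ratio. The numerator is not stated. The labels name smoke first and put it in channel 1 on all 6 arrays, so a positive ratio is read as likely higher after smoke. It is not stated whether the dye-reversed ratios, which 2 arrays hold, had been turned before deposit, and all arrays were used as deposited. Without such a turn, an effect of exposure would change sign between orientations, while a difference between the dyes would keep its sign. A positive ratio would then not mean higher after smoke on the dye-reversed arrays. The deposited values do not settle which case holds, and values with those arrays turned are given below. Arrays of the same dye orientation were mostly more alike, with overlapping ranges: among 2023 named genes with spots within 0.5, r was 0.225 to 0.558 over the 7 same-orientation pairs of arrays, against -0.0032 to 0.320 over the 8 pairs of opposite orientation. The value was r = 0.510 between the 2 dye-reversed arrays, which differ in exposure time, and r = 0.166 within the dye-swap pair at 6 weeks. Ratios give no expression level, so the endothelial identity of the cells could not be checked on its markers, and fewer cells of a type and less RNA per cell cannot be told apart.

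RefSeq promoter windows of mouse assembly GRCm38.p6 were given for 3 of the 5 genes, and are shown because genes with like ratios invite a look at their start sites. Each run is the 250 bases before an annotated start, on the plus strand, with motif matches in capitals. The motifs searched on both strands were the TATA box (TATAAA), the CCAAT box (CCAAT), the GC box (GGGCGG), the core of the xenobiotic response element (GCGTG), the AP-1 site (TGANTCA) and the CArG box of serum response factor. No matches overlapped each other.
Coch, chr12:51593091-51593340: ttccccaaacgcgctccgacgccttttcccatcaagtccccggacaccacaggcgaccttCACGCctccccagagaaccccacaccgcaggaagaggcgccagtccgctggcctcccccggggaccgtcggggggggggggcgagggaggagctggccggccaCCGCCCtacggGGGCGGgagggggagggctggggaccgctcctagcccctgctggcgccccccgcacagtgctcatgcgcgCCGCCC
Ecrg4, chr1:43730352-43730601: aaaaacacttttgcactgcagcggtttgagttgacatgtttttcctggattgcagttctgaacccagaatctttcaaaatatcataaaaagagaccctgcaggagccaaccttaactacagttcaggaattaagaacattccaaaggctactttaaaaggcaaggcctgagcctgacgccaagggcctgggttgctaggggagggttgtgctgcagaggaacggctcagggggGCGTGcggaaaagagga
Fhl1, chrX:56779433-56779682: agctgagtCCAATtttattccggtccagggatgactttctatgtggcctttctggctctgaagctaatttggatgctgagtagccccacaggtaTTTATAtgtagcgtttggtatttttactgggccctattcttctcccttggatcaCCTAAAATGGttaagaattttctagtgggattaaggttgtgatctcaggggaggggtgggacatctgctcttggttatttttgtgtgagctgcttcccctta

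No motif occurred in all 3 windows shown, and the xenobiotic response core occurred in those of Coch and Ecrg4. Coch had a GC content of 74.8%, with 3 GC boxes and 1 xenobiotic response core. Ecrg4 had a GC content of 48.4% and 1 xenobiotic response core, 17 to 13 bases before the start (positions -17 to -13). Fhl1 had a GC content of 44.4% in the window shown, with 1 CCAAT box, 1 TATA box on the minus strand and 1 CArG box (positions -102 to -93). A further Fhl1 window, at an alternative start, held none of the motifs. The median GC content over all 32851 mouse windows was 52.4%. Of those windows, 28.2% held a xenobiotic response core, 32.7% a GC box, 33.8% a CCAAT box, 12.4% a TATA box, 6.75% an AP-1 site and 1.47% a CArG box. These matches are letters in a window and not measured binding sites.

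Cpe had the highest mean ratio of all named genes at both times. It measured 3.15 on the 6-week array against 6-week control, 2.31 on the 6-week array against 1-week control and 2.61 on its dye reversal. The 1-week arrays gave 2.03 on replicate 1, 2.06 on replicate 2 and 2.56 on replicate 3. All arrays stood above 2, and the 6-week and 1-week arrays overlapped, since 1-week replicate 3 exceeded the 6-week array against 1-week control. Its paired spots lay within 0.0554 of each other on 4 arrays, for example 2.59 and 2.62 on the 6-week dye reversal. They read 2.93 and 3.37 against 6-week control, and 3.09 and 2.03 on 1-week replicate 3, where the lower spot was level with the other 1-week arrays. The mean was 2.81 ± 0.49 at 6 weeks (SD, n = 2), a 6.99-fold ratio, against 2.22 ± 0.30 at 1 week (SD, n = 3), a 4.65-fold ratio.

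Coch ranked 4th among named genes at 6 weeks and 2nd at 1 week. Its ratio was 1.95 on the array against 6-week control, 1.997 on the array against 1-week control and 2.48 on its dye reversal. At 1 week it was 2.16 on replicate 1, 1.34 on replicate 2 and 2.57 on replicate 3. The 6-week values lay inside the range of the 1-week values. Paired spots were as close as 2.16350 and 2.16027 on 1-week replicate 1, and as far apart as 2.37 and 2.77 on replicate 3. The mean was 2.10 ± 0.20 at 6 weeks (SD, n = 2), against 2.02 ± 0.63 at 1 week (SD, n = 3), which are 4.27-fold and 4.07-fold ratios. Coch had the widest spread of the 5 genes among the 1-week arrays.

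Clu stood at 1.93 on the array against 6-week control, at 1.51 against 1-week control and at 1.11 on the dye reversal. Its 1-week ratios were 1.12, 0.84 and 0.83 on replicates 1, 2 and 3. The groups overlapped by a narrow margin, since the 6-week dye reversal lay just below the 1-week dye reversal. Spots read 1.97 and 1.88 against 6-week control, 1.31 and 1.71 against 1-week control and 1.13 and 1.08 on the dye reversal. At 1 week they read 1.16 and 1.08, 0.98 and 0.70, and 0.90 and 0.77 on replicates 1, 2 and 3, so every spot was positive. The mean was 1.62 ± 0.44 at 6 weeks (SD, n = 2), a 3.07-fold ratio, against 0.93 ± 0.16 at 1 week (SD, n = 3), a 1.91-fold ratio.

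Ecrg4 had the lowest 1-week ratios of the 5 genes. It measured 1.72 on the array against 6-week control, 1.22 against 1-week control and 1.57 on the dye reversal. On 1-week replicates 1, 2 and 3 it measured 0.87, 0.50 and 0.80. Every 6-week array was above every 1-week array. Its spots read 1.82 and 1.63, 1.07 and 1.38, and 1.37 and 1.77 on those 6-week arrays, and 0.93 and 0.81, 0.45 and 0.55, and 0.64 and 0.96 on the 1-week arrays. The mean was 1.56 ± 0.23 at 6 weeks (SD, n = 2), a 2.95-fold ratio, against 0.72 ± 0.20 at 1 week (SD, n = 3), a 1.65-fold ratio.

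Fhl1, the gene without a secreted product, had ratios close to those of Clu. It measured 1.62 on the array against 6-week control, 1.66 against 1-week control and 1.18 on the dye reversal. The 1-week arrays gave 0.91, 0.70 and 1.13 on replicates 1, 2 and 3. The groups did not overlap, although the 6-week dye reversal lay only just above 1-week replicate 3. Spots read 1.82 and 1.42, 1.70 and 1.63, and 1.19 and 1.16 on the 6-week arrays, and 0.89 and 0.93, 0.59 and 0.81, and 1.16 and 1.10 on the 1-week arrays. The mean was 1.52 ± 0.14 at 6 weeks (SD, n = 2), a 2.87-fold ratio, against 0.91 ± 0.21 at 1 week (SD, n = 3), a 1.88-fold ratio.

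**Figure D1:**
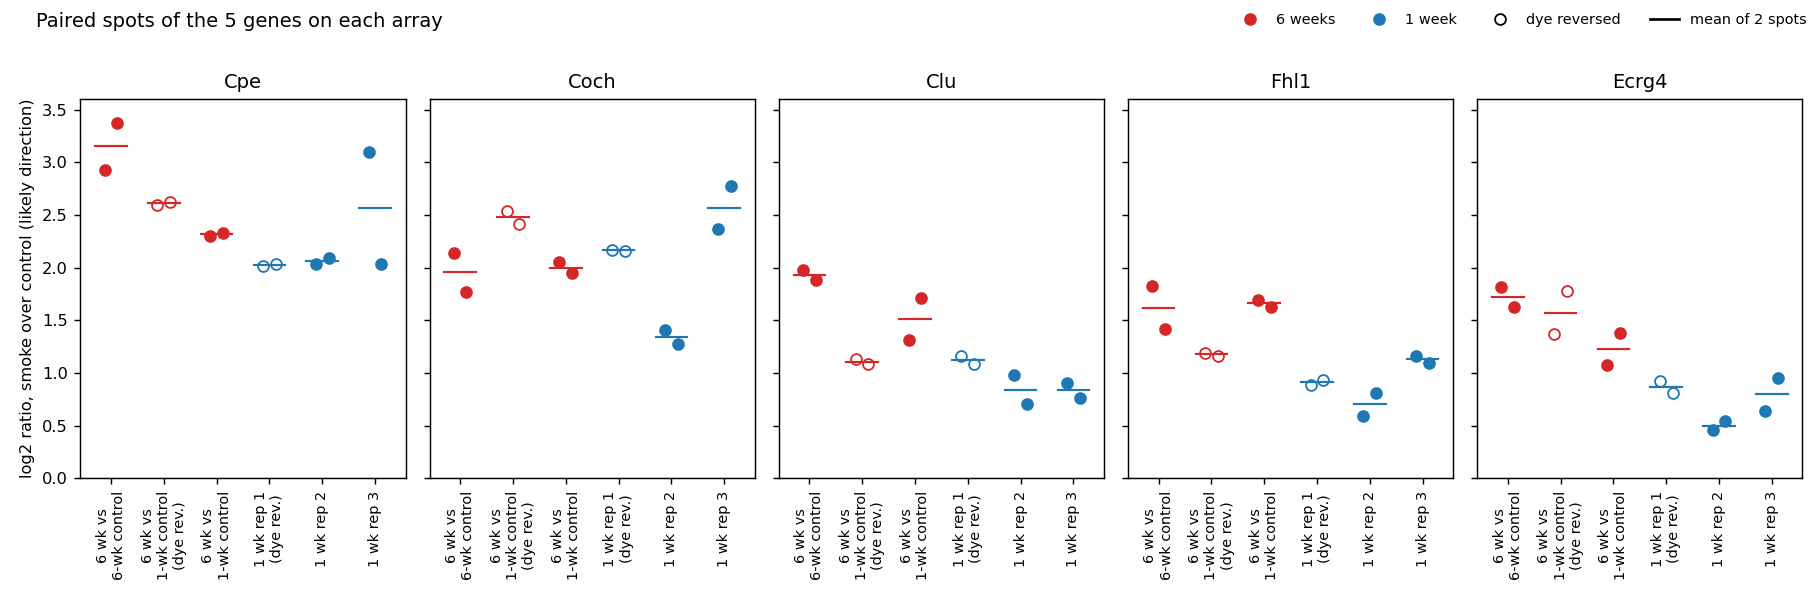
Log2 ratios of smoke over control (likely direction, vertical axis) for the paired spots of each gene (points) and their mean (line) on each of the 6 arrays, with 6-week arrays in red, 1-week arrays in blue and dye-reversed arrays as open points. All 60 spot values are above 0, and the means of Cpe and Coch lie above those of Clu, Fhl1 and Ecrg4 on each array, for Coch narrowly so against 6-week control (1.95, with Clu at 1.93).

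Read together, all 60 spot values of the 5 genes were positive, and 46 were above 1. By array mean, Cpe and Coch held the top places among the 5 on each of the 6 arrays, Cpe first on 4 of them and Coch on the 1-week arrays of replicates 1 and 3. The order of Clu, Fhl1 and Ecrg4 changed between arrays. Their means at 6 weeks, 1.62, 1.52 and 1.56, differed by less than the SD of any of the 3 genes.

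These values were unusual among the named genes because the choice fixed it, and the shares give only the size of that choice. A ratio above 0 on all 6 arrays was found for 361 of 11138 named genes (3.24%), and a ratio above 1 on all 6 for 5 genes (0.0449%), Cpe and Coch among them. Ranked by the lowest of the 6 arrays, Cpe was 1st and Coch 2nd, followed by Clu at place 6, Fhl1 at place 12 and Ecrg4 at place 20. Their lowest arrays read 2.03, 1.34, 0.83, 0.70 and 0.50. On single arrays, the lowest place of any of the 5 genes was that of Ecrg4 on 1-week replicate 2, at the 89.4th percentile of named genes. On the array against 6-week control the lowest of the 5 stood at the 99.7th percentile. The rule names no threshold, and 10 named genes (0.0898%) had means at least as high as the lowest of the 5 genes at both times. Besides the 5 these were Gm4788, Ephx2, Gem, Ahsg and Calcrl.

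The agreement of paired spots was not named in the rule, although a choice of genes with high averaged ratios can favour spots that agree. Over the 30 pairs of the 5 genes, the median difference between spots was 0.12 log2 units, and 96.7% of the pairs differed by less than 0.5. These pairs are the same 5 genes on 6 arrays and are not independent. Over 61080 pairs of the 10180 named genes with 2 spots, the median difference was 0.26, and 71.3% differed by less than 0.5. The closer agreement did not hold on every array: against 6-week control the median spot difference was 0.375 for the 5 genes and 0.310 for all, and on 1-week replicate 3 it was 0.315 and 0.347. Across these genes, which are not independent replicates, the correlation of paired spots was lowest at r = 0.209 and highest at r = 0.420 over the 6 arrays. The spots of Coch, Clu, Fhl1 and Ecrg4 differed by less than 1 on every array, and those of Cpe did so on all but 1-week replicate 3, where they differed by 1.06.

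**Figure D2:**
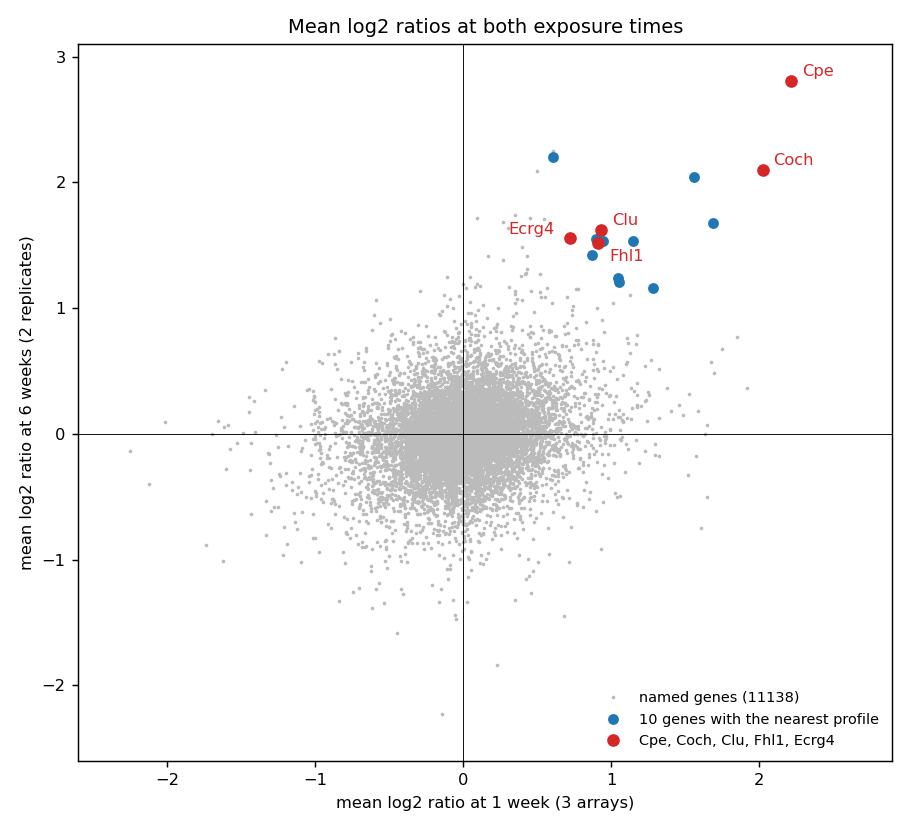
Mean log2 ratio at 6 weeks (vertical axis, 2 replicates) against that at 1 week (horizontal axis, 3 arrays) for 11138 named genes (grey), the 10 genes with the nearest profile (blue) and the 5 genes (red). Cpe, at 2.81 and 2.22, lies farthest to the upper right, and Clu, Fhl1 and Ecrg4 lie between 1.52 and 1.62 at 6 weeks and between 0.72 and 0.93 at 1 week.

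The difference between exposure times was not part of the rule, although a choice of genes that are high at both times narrows it. The 6-week mean joins 1 replicate against 6-week control with 1 against 1-week control. In the latter, exposure time cannot be told apart from the differing weeks of smoke and control. The log ratio of Ecrg4 was 0.84 ± 0.27 higher at 6 weeks than at 1 week (limma, SE), that of Clu 0.69 ± 0.30, that of Fhl1 0.61 ± 0.26, that of Cpe 0.59 ± 0.34 and that of Coch 0.07 ± 0.42. None of the 5 differences passed the threshold, with a limma Benjamini-Hochberg adjusted p = 0.951 for Ecrg4, Clu, Fhl1 and Cpe and 0.989 for Coch. Limma passed 0 of 19242 features (0%) in this contrast, with 684 at an unadjusted p under 0.05, which is a share below 0.05. Every 6-week array lay above every 1-week array for 2 of the 5 genes, Ecrg4 and Fhl1, and for 536 of the named genes (4.81%).

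These differences depended on how the dye-reversed arrays are signed. If only the one at 6 weeks was turned, the 6-week means became 1.501 for Cpe, 0.86 for Coch, 1.06 for Clu, 0.93 for Fhl1 and 0.78 for Ecrg4. All 5 means were positive, but the 6-week minus 1-week difference became -0.71 for Cpe, -1.17 for Coch, 0.13 for Clu, 0.019 for Fhl1 and 0.053 for Ecrg4. With both dye reversals turned, the 1-week means became 0.87 for Cpe, 0.58 for Coch, 0.19 for Clu, 0.31 for Fhl1 and 0.14 for Ecrg4, and the differences were 0.64 for Cpe, 0.27 for Coch, 0.88 for Clu, 0.63 for Fhl1 and 0.63 for Ecrg4. Leaving out the array against 6-week control gave 0.25 for Cpe and 0.38 for Clu, and quantile normalization gave 2.03 for Cpe. For Coch the direction also rested on single arrays, as leaving out 1-week replicate 2 gave a difference of -0.27, and leaving out the 6-week dye reversal gave -0.05.

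The dye orientations are set side by side as a description only. Each exposure time holds 1 dye-reversed array, so a gene whose ratio changed sign with the dye could hardly have been chosen, and the choice itself keeps these differences small. As deposited, the mean over the 2 dye-reversed arrays was 2.32 for Cpe, against 2.52 over the 4 unreversed arrays. The same pair of means was 2.32 against 1.96 for Coch, 1.11 against 1.28 for Clu, 1.04 against 1.28 for Fhl1 and 1.22 against 1.06 for Ecrg4. In a limma fit with a dye term, which counts the 6 arrays as separate, the dye-reversed minus unreversed difference was -0.20 ± 0.34 for Cpe, 0.35 ± 0.40 for Coch, -0.16 ± 0.32 for Clu, -0.23 ± 0.27 for Fhl1 and 0.16 ± 0.27 for Ecrg4 (SE). Over all genes limma passed 0 of 19242 features (0%) for the dye term, with 1130 at an unadjusted p under 0.05.

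**Figure D3:**
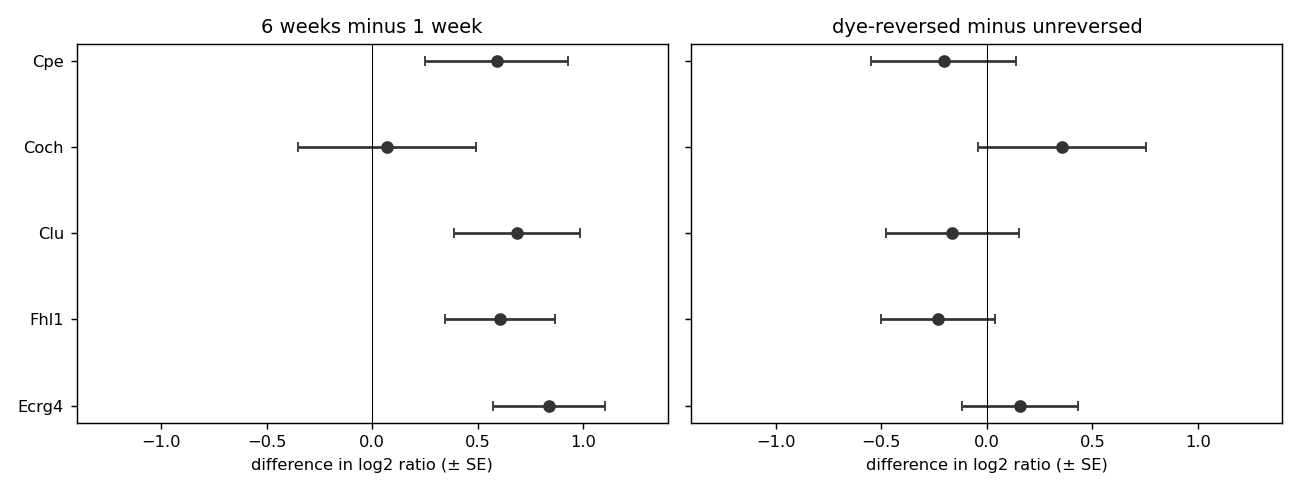
Differences in log2 ratio (horizontal axes, points with SE bars from limma) for the 5 genes between 6 weeks and 1 week (left) and between dye-reversed and unreversed arrays (right), all arrays as deposited. The time differences run between 0.07 for Coch and 0.84 for Ecrg4, and the dye differences lie on both sides of 0, between -0.23 and 0.35.

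The 6-week and 1-week controls could be compared only in single values of the 6-week smoke arrays. Cpe measured 3.15 against 6-week control and 2.46 as the mean of the arrays against 1-week control, a gap of 0.69, and Clu measured 1.93 against 6-week control and 1.31 against 1-week control, a gap of 0.62. Those gaps exceeded the ones between the 2 dye orientations against 1-week control, 0.29 for Cpe and 0.40 for Clu. For Coch, Fhl1 and Ecrg4 the gaps were -0.28, 0.20 and 0.33, each smaller than the gap between the dye orientations of the same gene. The array against 6-week control is unreversed, while the mean against 1-week control joins both orientations, so these gaps mix control week with dye orientation. On the unreversed arrays against 6-week and 1-week control, Cpe measured 3.15 and 2.31, Clu 1.93 and 1.51 and Ecrg4 1.72 and 1.22. Fhl1 measured 1.62 and 1.66 there, and Coch 1.95 and 1.997. For Ecrg4 that gap exceeded the one between its dye orientations, so the split among the genes depended on the arrays compared. With 1 replicate for each control this was not tested.

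The named genes with the profile nearest to the mean of the 5 genes were found by the root mean square difference over the 6 arrays. Calcrl, a receptor subunit for adrenomedullin, was nearest at 0.43 log2 units, with means of 1.53 at 6 weeks and 1.15 at 1 week. Ahsg, the serum protein fetuin-A, followed at 0.49 (means of 1.53 and 0.94), and Tsc22d3, a glucocorticoid-induced leucine zipper protein, at 0.52 (1.16 and 1.28). Ephx2, an epoxide hydrolase, was at 0.54, but its spots differed by up to 2.39. Ccn2, a matricellular growth factor, Gem, a small GTPase, Ghr, the growth hormone receptor, Plagl1, a zinc finger transcription factor, Mbnl1, a splicing regulator, and Gm4788 completed the 10, with differences between 0.54 and 0.63. The 5 genes themselves differed from the mean of the other members by 0.56 for Fhl1, 0.57 for Clu, 0.66 for Ecrg4, 0.75 for Coch and 1.08 for Cpe. The ratios of Cpe were the farthest from those of the other 4. Ranking by Pearson's correlation over the 6 arrays shared 0 of these 10 genes.

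Genes related to the 5 by function or domain had list medians near 0. The genes of 14 lists were chosen with earlier results of these data known. Limma passed 0 of 19242 features at 6 weeks (0%, with 792 at an unadjusted p under 0.05) and 0 at 1 week (0%, with 1280), so no list gene passed there. Among the 5625 named genes whose spots differed by less than 1 on every array, 12 passed at 6 weeks (0.213%) and 102 at 1 week (1.81%), and list counts are given from that fit. The means and SEs of list genes come from the fit over all tests. The medians of all named genes were -0.01 at both times.

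Of 20 measured genes for prohormone and peptide processing, the setting in which Cpe acts, 10 had a positive and 10 a negative mean of both times, with medians of -0.08 at 6 weeks and 0.02 at 1 week. None of the 11 with agreeing spots passed. Ctsl, a protease that also cleaves precursors, had the largest mean of both times, 0.43, with 0.18 ± 0.41 at 6 weeks and 0.68 ± 0.34 at 1 week (SE). Pcsk5, a proprotein convertase, stood at -0.09 ± 0.60 at 6 weeks and 0.92 ± 0.49 at 1 week. Pcsk1n, which encodes an inhibitor of a convertase, stood at -0.24 ± 0.23 and -0.38 ± 0.19. The spots of Pcsk5 and Pcsk1n differed by up to 1.36 and 1.52.

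The list set beside Clu holds extracellular chaperones, apolipoproteins and terminal complement genes, and also other genes such as cell-surface receptors. Of its 15 measured genes, 10 had a positive mean of both times. The medians were -0.08 at 6 weeks and 0.02 at 1 week, and none of the 7 with agreeing spots passed. Vtn, which encodes the complement-binding adhesion protein vitronectin, had 0.81 ± 0.47 at 6 weeks and 0.95 ± 0.38 at 1 week and was positive on all 6 arrays, with spots that differed by up to 1.05. Apoc1, an apolipoprotein, had -1.59 ± 0.33 at 6 weeks and -0.45 ± 0.27 at 1 week, with spots that differed by up to 1.36. Hp, which encodes haptoglobin, had -0.30 ± 0.43 and -0.44 ± 0.35.

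Of 27 measured LIM domain genes, the relatives of Fhl1, 12 had a positive mean of both times, the medians were 0.02 at 6 weeks and -0.02 at 1 week, and none was positive on all 6 arrays. None of the 12 with agreeing spots passed. Lmo2, a LIM-only transcription cofactor, had 0.68 ± 0.20 at 6 weeks and 0.09 ± 0.16 at 1 week. Crip1 had 0.29 ± 0.38 and -1.44 ± 0.31, with spots that differed by up to 1.30. Of 21 measured genes with von Willebrand factor A or LCCL domains, the relatives of Coch, 5 had a positive mean of both times, with medians of -0.05 and -0.15, and none of the 11 with agreeing spots passed. Crispld1, which has LCCL domains, had 0.78 ± 0.23 at 6 weeks and 1.17 ± 0.19 at 1 week, with spots that differed by up to 1.04. Col14a1, a collagen with von Willebrand factor A domains, had -0.17 ± 0.42 and -1.03 ± 0.34.

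Markers of other cell types were set beside the 5 genes, since a sorted population can hold other cells. Of 16 measured smooth muscle and pericyte markers, 10 had a positive mean of both times, none of the 11 with agreeing spots passed, and the list median lay between 0.03 and 0.49 on the 6 arrays, with 0.08 at 6 weeks and 0.03 at 1 week. Acta2, the smooth muscle actin, had 1.14 ± 0.26 at 6 weeks and 0.46 ± 0.21 at 1 week, and the pericyte potassium channel genes Abcc9 and Kcnj8 had 1.28 ± 0.27 and 1.07 ± 0.25 at 6 weeks and 0.42 ± 0.22 and 0.36 ± 0.20 at 1 week. The spots of Abcc9 differed by up to 1.14. Among other contractile markers, Myh11 had a mean of both times of 0.19, Smtn 0.06, Des 0.03 and Tagln 0.0027. Lmod1 had -0.39, Cnn1 -0.15, Actg2 -0.11 and Mylk -0.09. Of the other pericyte markers, Rgs5, Notch3 and Mcam had means of both times of 0.33, 0.25 and 0.19. Pdgfrb and Higd1b had -0.13 and -0.26. Of 16 fibroblast markers, with array medians between -0.41 and -0.12, 11 had agreeing spots, of which Aspn passed with a positive ratio at 6 weeks (1.72 ± 0.26, limma adjusted p = 0.0255). Dpt, Gsn and Pi16 passed with negative ratios at 1 week (-1.33 ± 0.22, -1.04 ± 0.24 and -0.83 ± 0.18, limma adjusted p = 0.0193, 0.0489 and 0.0489). Postn, which encodes the matrix protein periostin, had 2.25 ± 0.48 at 6 weeks and 0.61 ± 0.39 at 1 week and did not pass. The part of such cells in the ratios of the 5 genes was not tested.

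The hepatocyte and serum protein list had the highest median of the 14 lists at both times, 0.26 at 6 weeks and 0.06 at 1 week. At 1 week the adipocyte list was close, at 0.05. Of 11 measured genes, 8 had a positive mean of both times, 3 were positive on all 6 arrays, and the list median lay between 0.01 and 0.72 on single arrays. Of the 3 with agreeing spots, Serpina1c and Ahsg passed at 6 weeks (2.09 ± 0.21 and 1.53 ± 0.21, limma adjusted p = 0.00772 and 0.0219) and Ahsg also at 1 week (0.94 ± 0.17, limma adjusted p = 0.026). With the 6-week dye reversal turned, no gene passed at 6 weeks. Serpina1b had 1.71 ± 0.26 at 6 weeks and 0.54 ± 0.22 at 1 week, with spots that differed by up to 1.33. Serpina1a, Serpina1b, Serpina1c and Serpina1d are near-identical relatives, and the probes may not tell them apart. They may thus not be separate among the 8 positive genes. In the mean of both times, Alb (albumin), Apoa2 and Ttr (transthyretin) were negative, with -0.18, -0.32 and -0.07. Serpina1a, Serpina1d, Fga, Hpx and Ambp were positive, between 0.07 and 0.49. The part of RNA from such cells was not tested.

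Medians of the other cell lists were mostly near 0, the largest in size being -0.24 for the adipocyte list at 6 weeks. In the mesothelial, airway and alveolar epithelial, neural and glial, leukocyte and platelet, and adipocyte lists, medians lay between -0.24 and 0.11 at 6 weeks and between -0.12 and 0.05 at 1 week, and no gene with agreeing spots passed. Of 17 pan-endothelial markers, 7 had a positive mean of both times, 1 was positive and 4 were negative on all 6 arrays, with medians of -0.07 at 6 weeks and -0.13 at 1 week. Cldn5, a junction protein, had -0.90 ± 0.21 at 6 weeks and -0.68 ± 0.17 at 1 week, with Egfl7 at -0.32 ± 0.20 and -0.61 ± 0.17 and Eng at -0.49 ± 0.22 and -0.49 ± 0.18. The endothelial genes Tek, Cdh5 and Pecam1, the highest of this list, had means of both times of 0.38, 0.35 and 0.30. Robo4, Emcn, Kdr and Icam2 had -0.39, -0.35, -0.31 and -0.25. Of 20 arterial, venous and lymphatic markers, 9 had a positive mean of both times, and the median of those means was -0.01. Mgp, a calcification inhibitor of arteries, had 1.74 ± 0.34 at 6 weeks and 0.35 ± 0.28 at 1 week. Its spots differed by up to 1.02. Bgn, a matrix proteoglycan, had 1.27 ± 0.31 and 0.42 ± 0.26. Ackr1, an atypical chemokine receptor of venules, had -0.50 ± 0.91 and -1.06 ± 0.74, with spots that differed by up to 6.21, and Cxcl12, a chemokine, had a mean of both times of -0.60. No gene of either endothelial list with agreeing spots passed.

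**Figure D4:**
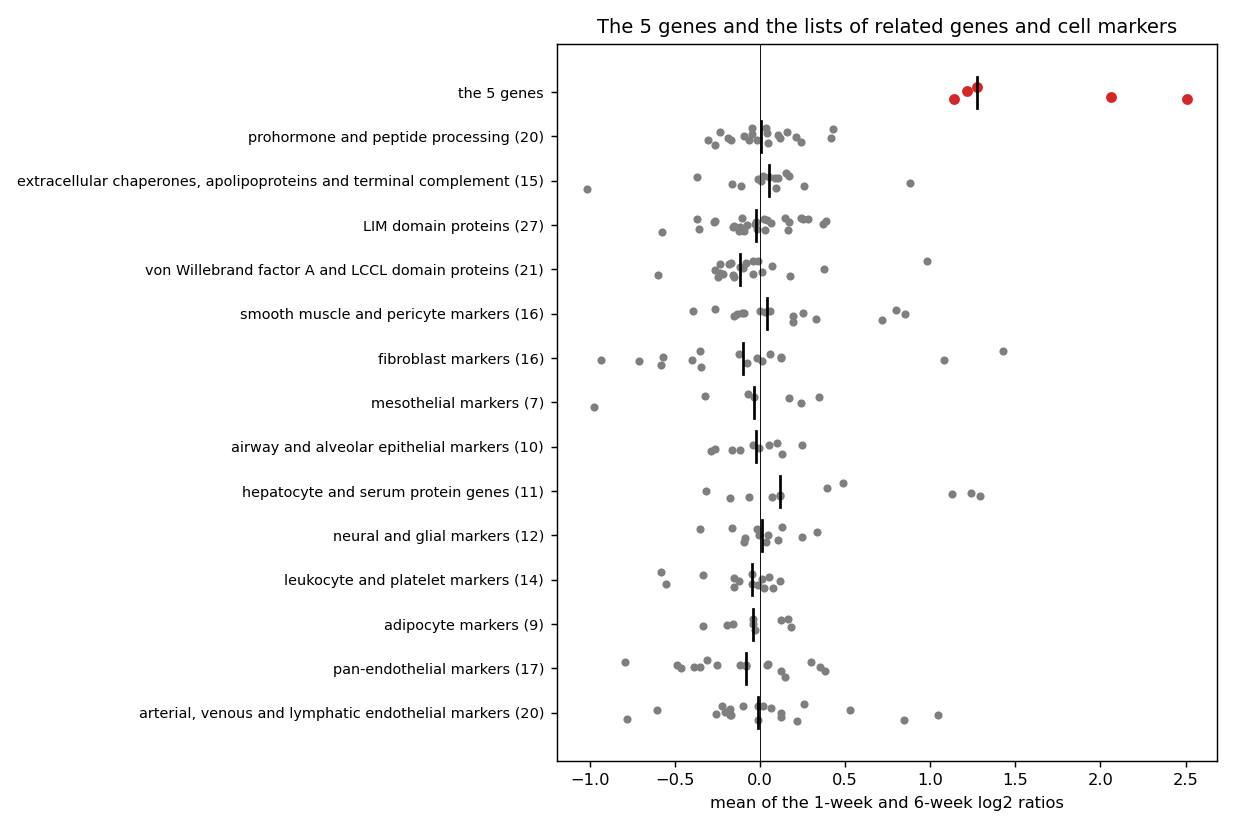
Mean of the 1-week and 6-week log2 ratios (horizontal axis) for the 5 genes (red) and for the measured genes of each list (grey points, number in brackets), with the median of each row as a black line. The 5 genes run between 1.14 and 2.51, and the list medians lie between -0.12 and 0.12.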

How the data were processed

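The authors deposited log2 ratios, 1 per array, for 32448 features. Scanner, background correction, normalization, filter and dyes are not given in the sources used here. Turned back to folds, at least 99.99% of the deposited values of an array fell on whole hundredths (tolerance 0.02 of a hundredth), which gave the log base, and the median was 3e-07 in size. No intensities or detection calls were used, so signal over background is unknown. The 5 genes, the lists and the tests were chosen with earlier results of these data known.

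Gene symbols came from the platform's probe table, which gave 1 symbol for 24344 features, several for 98 and none for 8006. Checked against RefSeq GRCm38.p6 through Entrez identifiers, 0 symbols changed. Arrays were centred on their medians and spots of a gene averaged, giving 11138 named genes and 8104 unnamed features, 19242 tests. No filter on low values was applied, and all 5 genes were measured, each in 2 spots. The dye-swap pair at 6 weeks was averaged, and the 5 replicates fitted with a coefficient per exposure time (lmFit and eBayes, limma 3.58.1, R 4.3.3), two-sided, with Benjamini-Hochberg adjustment over all tests and a threshold of 0.05. Arrays kept their deposited sign, which the correlations do not settle. Among 2023 named genes with spots within 0.5, the 1-week dye reversal correlated with the other 1-week arrays at r = 0.299 and r = 0.320 (0.031 and 0.055 over all 19242 tests), and the 6-week dye reversal with its partner at r = 0.166 (-0.01 over all tests) and with 1-week replicates 2 and 3 at r = 0.010 and r = -0.0032. The code was tested on simulated data. Genes were named by rule: the 5 genes, the 10 nearest in profile and, in each list, up to 3 with the largest mean of both times in size plus those that passed. Gm4788, Ephx2, Gem, Ahsg and Calcrl, as equally high genes, were named after their values were seen. The same holds for Myh11, Smtn, Des, Tagln, Lmod1, Cnn1, Actg2, Mylk, Rgs5, Notch3, Mcam, Pdgfrb and Higd1b. It also holds for Alb, Apoa2, Ttr, Serpina1a, Serpina1d, Fga, Hpx, Ambp, Tek, Cdh5, Pecam1, Robo4, Emcn, Kdr, Icam2 and Cxcl12.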

Additional observations from a re-analysis of the deposited data

How the results depend on the processing

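Alternatives changed the sign of the dye-reversed arrays, the arrays in the fit, the averaging of the dye swap, scale, normalization, summary of spots, filter, variance model, dye term and threshold. Restricting the test to genes with agreeing spots gave 102 passing genes at 1 week, 12 at 6 weeks and 103 for the mean of both times, against 0 over all tests in each, and 0 for the time difference. With the 6-week dye reversal turned as well, which was chosen after seeing the data, these were 78 at 1 week, 0 at 6 weeks, 0 for the mean of both times and 1 for the difference. Without moderation of the variance, 5 genes passed for the difference, 5 at 6 weeks, 3 for the mean and 0 at 1 week. Counting the dye swap as separate replicates gave 6 for the mean of both times. Leaving out each array in turn gave 0 in every contrast, and robust limma and the threshold of 0.10 also gave 0.

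The median of the members at 6 weeks was 1.62, and the median of the members at 1 week was 0.93. The 6-week median became 0.93 with the 6-week dye reversal or both dye reversals turned, and 2.13 with quantile normalization. Over the 4 members with agreeing spots it was 0.89 with the 6-week dye reversal turned. The 1-week median became 0.31 with both dye reversals turned. Leaving out each array in turn gave 1.42 to 1.72 at 6 weeks and 0.91 to 1.02 at 1 week. The time difference changed sign for Cpe (-0.71) and Coch (-1.17, also among genes with agreeing spots) with the 6-week dye reversal turned. It also did for Coch without single arrays (-0.27 to 0.34). For Clu, Fhl1 and Ecrg4 it was positive in each alternative but close to 0 with the 6-week dye reversal turned (0.13, 0.019 and 0.053). Without the array against 6-week control it was 0.25 for Cpe and 0.38 for Clu, and with quantile normalization 2.03 for Cpe. The number of named genes above 0 on all 6 arrays, 361, became 103 with the lowest spot, 274 with the 6-week and 290 with both dye reversals turned, and 236 of the 5625 genes with agreeing spots (4.20%, against 3.24%). The nearest genes by correlation shared 0 of 10 with those by distance. The lower count among genes with agreeing spots comes from a smaller set, and the cause of the other shifts was not tested. Each ratio already sets smoke against control on the same array. Beyond the dye-swap pair at 6 weeks the labels link no arrays, so no further pairing was used.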
